A study of Homo sapiens with 24 samples.

Results

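The receptors described here direct where B cells travel and where they settle in lymphoid tissue. They are the chemokine receptors CCR7, CCR6, CXCR4 and CXCR5, the sphingosine-1-phosphate (S1P) receptors S1PR1 and S1PR2, the oxysterol receptor GPR183 (EBI2) and the receptor P2RY8. The members are a group by function, taken as the rows of the expression table that carry these symbols, and were proposed with earlier results of these data known. All 8 were found among 25161 gene symbols. P2RY8 has 2 rows with identical values, and every other member has 1 row. The data are 24 Clariom D arrays, and every level below is a log2 value after robust multi-array average (RMA) normalization.

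The arrays came from 2 established human lymphoma lines, SU-DHL-4, a diffuse large B-cell lymphoma line of the germinal centre B-cell type, and DG-75, a Burkitt lymphoma line. Each line was cultured for 72 h with DMSO as solvent control, with 1 µM Entospletinib (Ento), with 0.01 µM AZD5153 (AZD) or with both compounds at these doses (Ento+AZD). Ento blocks SYK, the kinase that passes on B-cell receptor signals, and AZD blocks BET proteins, readers of acetylated histones, through a bivalent contact. The 8 groups of line and treatment held 3 arrays each, which the study's design names as biological triplicates and which are numbered 1 to 3. Each lymphoma type was represented by 1 line, so that line and lymphoma type cannot be told apart. A lower level in these bulk samples may mean less RNA per cell or fewer cells that carry it, which cannot be told apart.

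All members are G protein-coupled receptors at the cell surface. CXCR5 draws B cells towards CXCL13 in the follicle, CCR7 towards CCL19 and CCL21 in the T-cell zone, CXCR4 towards CXCL12, which marks the dark zone of the germinal centre and the bone marrow, and CCR6 towards CCL20. S1PR1 guides lymphocytes out of lymphoid tissue along the S1P gradient, and GPR183 follows oxysterols to the outer follicle and is shut off in germinal centre B cells. S1PR2 and P2RY8 act the other way: both couple to the G protein subunit GNA13, hold back migration and keep B cells confined to the germinal centre, and both are recurrently mutated in germinal centre lymphomas. P2RY8 responds to S-geranylgeranyl-L-glutathione.

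The RefSeq annotation of GRCh38.p14 places CCR7 at chr17:40553769-40565472, CCR6 at chr6:167111795-167139141, CXCR4 at chr2:136114349-136118149 and CXCR5 at chr11:118883892-118897787. It places S1PR1 at chr1:101236899-101242313, S1PR2 at chr19:10221433-10231331, GPR183 at chr13:99294539-99307399 and P2RY8 at chrX:1462581-1537185. The arrays carry no genome build of their own here. P2RY8 lies in the pseudoautosomal region that chromosomes X and Y share. The bases before the start of the egress receptor gene S1PR1 and of the confinement receptor genes S1PR2 and P2RY8 are printed because S1PR1 rose in DG-75 under Ento+AZD while S1PR2 and P2RY8 had lower means. They are RefSeq sequence of GRCh38.p14 on the gene's own strand, 5′ to 3′, chr1:101236769-101236898 (+) for S1PR1, chr19:10231332-10231581 (-) for S1PR2 and chrX:1537186-1537435 (-) for P2RY8. Capitals mark the letters CACCC on either strand, the core of the box bound by KLF factors such as KLF2, which is known to act on S1PR1.
S1PR1: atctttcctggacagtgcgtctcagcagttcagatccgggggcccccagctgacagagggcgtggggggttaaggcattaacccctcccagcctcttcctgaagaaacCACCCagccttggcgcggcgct
S1PR2: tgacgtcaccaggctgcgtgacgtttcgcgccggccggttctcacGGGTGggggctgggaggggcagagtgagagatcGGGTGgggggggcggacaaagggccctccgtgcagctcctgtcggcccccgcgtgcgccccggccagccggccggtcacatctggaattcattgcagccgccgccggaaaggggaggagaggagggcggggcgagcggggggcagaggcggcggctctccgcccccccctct
P2RY8: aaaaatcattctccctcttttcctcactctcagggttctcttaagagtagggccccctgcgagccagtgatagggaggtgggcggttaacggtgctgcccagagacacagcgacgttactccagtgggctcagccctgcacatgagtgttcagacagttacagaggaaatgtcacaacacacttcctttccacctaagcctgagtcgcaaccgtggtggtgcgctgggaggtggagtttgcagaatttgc
The S1PR1 stretch of 130 bases held 1 such match, the S1PR2 stretch of 250 bases held 2 and the P2RY8 stretch of 250 bases held 0. The letters are common: 35.6% of 35093 promoters held them within 130 bases and 54.7% within 250 bases. The FOXO box GTAAACA (1.46% and 2.98% of promoters) and the E-box CACGTG (4.11% and 6.34%) had 0 matches in the 3 stretches, with both strands searched. A match is a description of the letters alone. Under Ento+AZD the log2 level of KLF2 itself differed from DMSO by 0.25 (SE 0.147) in DG-75 and by -0.05 (SE 0.169) in SU-DHL-4. The part of KLF2 in the changes was not tested.

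Array medians lay between 4.9 and 5.15, and the correlation of replicates within a group was 0.981 to 0.992. All 5 B-cell markers counted lay over the median row of the table (5.05) in both lines, from PAX5 at 8.42 to CD79A at 12.17 in SU-DHL-4 and from MS4A1 at 7.31 to CD79A at 11.56 in DG-75. The germinal centre markers BCL6 and MME did so too, the 4 T-cell markers did not, and 1 of 4 myeloid markers (CSF1R) did. Of the stromal markers COL1A1, COL1A2 and DCN, all 3 lay over it in SU-DHL-4 but 2 of 3 in DG-75, and DCN averaged 9.14 in SU-DHL-4 against 4.93 in DG-75. The summed level of the stromal markers was 21.43 to 22.82 over the SU-DHL-4 arrays and 17.11 to 18.82 over the DG-75 arrays, and its part in the differences between lines was not tested. Calls needed a fold change over 2 together with an adjusted p under 0.05 (limma, Benjamini-Hochberg over all 25575 rows), and intervals are 95% intervals. The precision of every value is limited by 3 arrays per group.

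Under DMSO the lines differed in the level of some homing receptors. SU-DHL-4 had more CXCR5 than DG-75, and DG-75 had more CXCR4. CCR6 had higher array values in SU-DHL-4, but both means (4.95 and 3.51) lay under the table's median row. Its call was kept in 3 of 9 omissions of an array or a replicate number. The row means of CCR7 (4.55), CCR6 (4.16), S1PR1 (4.63) and GPR183 (3.72) lay under the table's median row. Without a detection value, such levels cannot be separated from background, and levels of different genes are not compared. Where a level lay under the median row, for members and other genes alike, a log2 difference is one between array values and gives no exact fold of RNA. Of the members, 3 of 8 were called between the lines, against a background of 7.2% of all rows.

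**Figure D1:**
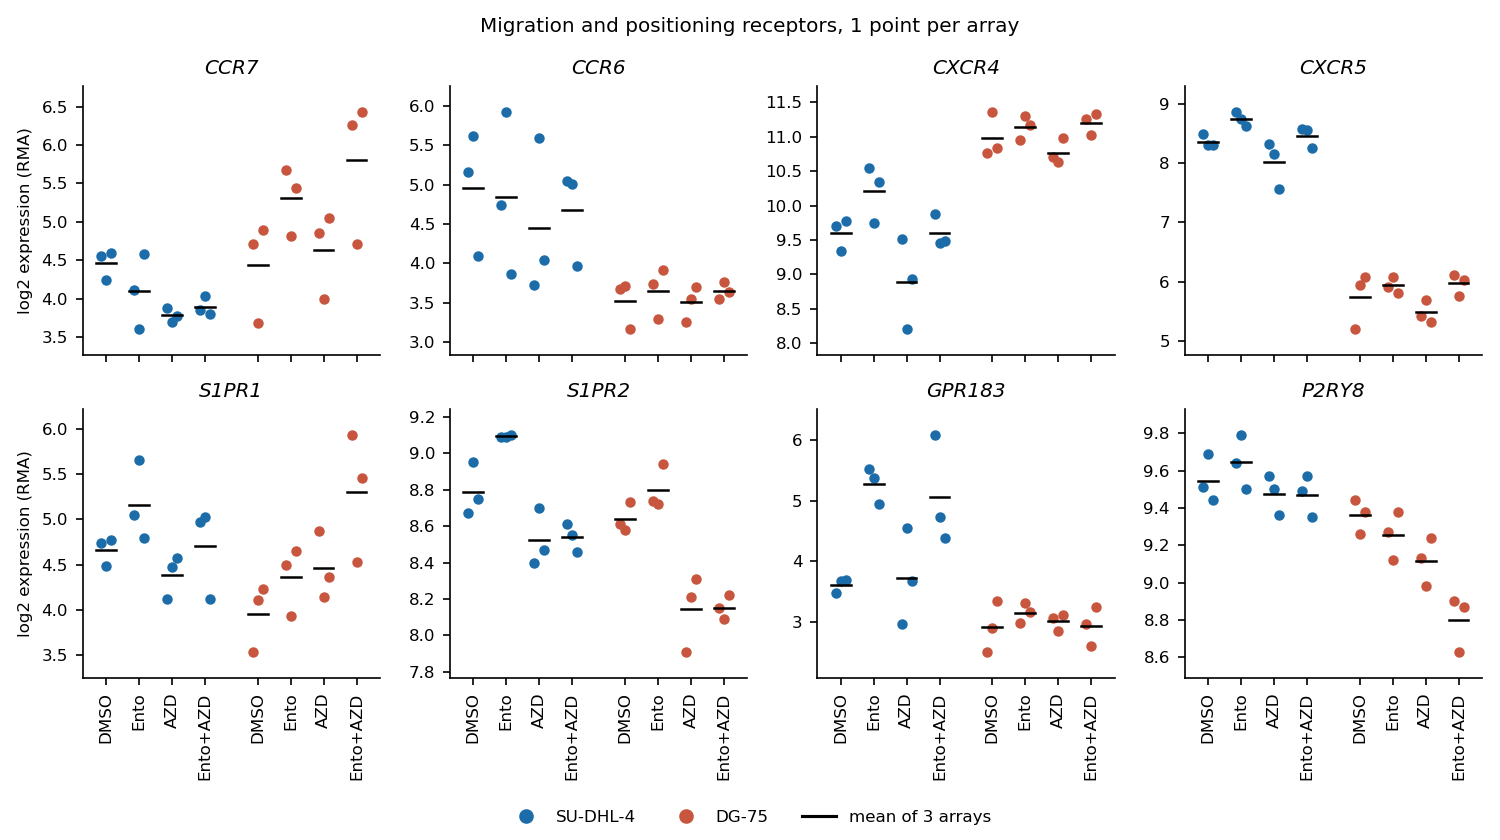
Log2 expression (RMA) of the 8 receptors on each of the 24 arrays, 1 point per array, with a bar at the mean of 3 arrays; each panel has its own scale, which does not start at 0. CXCR4 and CXCR5 separate the lines without overlap. The means of CCR7 and S1PR1 are highest in DG-75 under Ento+AZD, with arrays that overlap those of the next group.

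CXCR5 stood at 8.49, 8.30 and 8.30 on the SU-DHL-4 DMSO arrays and at 5.21, 5.94 and 6.08 on those of DG-75. It was 6.15-fold higher in SU-DHL-4 (log2 difference 2.62, SE 0.203, limma adjusted p = 1.04e-09). The 12 SU-DHL-4 arrays spanned 7.56 to 8.86 and the 12 DG-75 arrays 5.21 to 6.12, so that no treatment brought the lines to overlap. CXCR4 showed the reverse, with 9.70, 9.34 and 9.78 in SU-DHL-4 and 10.76, 11.36 and 10.83 in DG-75. It was 2.59-fold lower in SU-DHL-4 (log2 difference -1.37, SE 0.253, limma adjusted p = 0.000294), and over all treatments SU-DHL-4 spanned 8.21 to 10.54 and DG-75 10.63 to 11.36.

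CCR6 stood at 5.16, 5.62 and 4.09 in SU-DHL-4 and 3.67, 3.71 and 3.17 in DG-75 under DMSO. The difference was called (log2 1.44 between array values, SE 0.455, limma adjusted p = 0.0296). The DMSO means of both lines (4.95 and 3.51) lay under the table's median row and cannot be separated from background. The replicates of SU-DHL-4 were far apart, with SDs averaging 0.86 over its groups against 0.24 in DG-75. The call was lost without DMSO replicate 1 (adjusted p = 0.103) or 2 (0.165) of SU-DHL-4, without DMSO replicate 1 (0.058) or 3 (0.115) of DG-75, and without all arrays of replicate 1 (0.235) or 2 (0.0504). The other members did not pass: the line difference was 0.03 for CCR7 (interval -0.73 to 0.80), 0.70 for S1PR1 (0.05 to 1.35), 0.15 for S1PR2 (-0.12 to 0.41), 0.69 for GPR183 (-0.03 to 1.42) and 0.18 for P2RY8 (-0.09 to 0.45). The DMSO ranges of the lines did not overlap for 5 of 8 members, compared with 33.3% of all symbols.

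Ento+AZD against DMSO addresses the joint inhibition of SYK and BET proteins. In DG-75 the T-zone receptor CCR7 and the egress receptor S1PR1 rose past the fold minimum under Ento+AZD, from DMSO means of 4.43 and 3.96 that lay under the table's median row and cannot be separated from background. The confinement receptor P2RY8 fell by less than 2-fold with an adjusted p under 0.05. In SU-DHL-4 no member was called. The share of all rows called was 0.833% in DG-75, against 2 of 8 members, and 1.19% in SU-DHL-4, against 0 of 8.

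CCR7 was 4.71, 3.69 and 4.90 on DG-75 arrays 1 to 3 under DMSO and 6.26, 4.71 and 6.43 under Ento+AZD. Replicate 2 was the lowest array of both groups, and the ranges overlapped because its Ento+AZD value lay under DMSO replicate 3. Against the DMSO array of the same number, CCR7 was higher by 1.55, 1.03 and 1.53. The fitted difference between array values was called, with no exact fold given for the low DMSO level (log2 1.37, SE 0.186, interval 0.96 to 1.78, limma adjusted p = 0.0162). The call rests on the replicate term, since the adjusted p was 0.125 without it. The study's methods name a batch term without defining it, and the use of the replicate number in its place is an assumption made here. It was also lost without DMSO replicate 1 (0.135) or Ento+AZD replicate 1 (0.123), and without all arrays of replicate 1 (0.316), 2 (0.0935) or 3 (0.0626), while the log2 difference stayed between 1.22 and 1.6.

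S1PR1 was 3.54, 4.11 and 4.23 under DMSO and 5.93, 4.53 and 5.46 under Ento+AZD in DG-75. The ranges did not overlap, but the arrays rose unequally, by 2.39 in replicate 1, 0.41 in replicate 2 and 1.22 in replicate 3. The fitted difference was called, again with no exact fold (log2 1.34, SE 0.287, interval 0.71 to 1.97, limma adjusted p = 0.0383). Of the 9 omissions of an array or a replicate number, only that of DMSO replicate 2 kept the call (adjusted p = 0.0486). The adjusted p was 0.199 without DMSO replicate 1, 0.107 without DMSO replicate 3, 0.217, 0.0535 and 0.0887 without Ento+AZD replicates 1, 2 and 3, and 0.438, 0.117 and 0.166 without replicate numbers 1, 2 and 3. Without replicate 1 the log2 difference was 0.82.

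**Figure D2:**
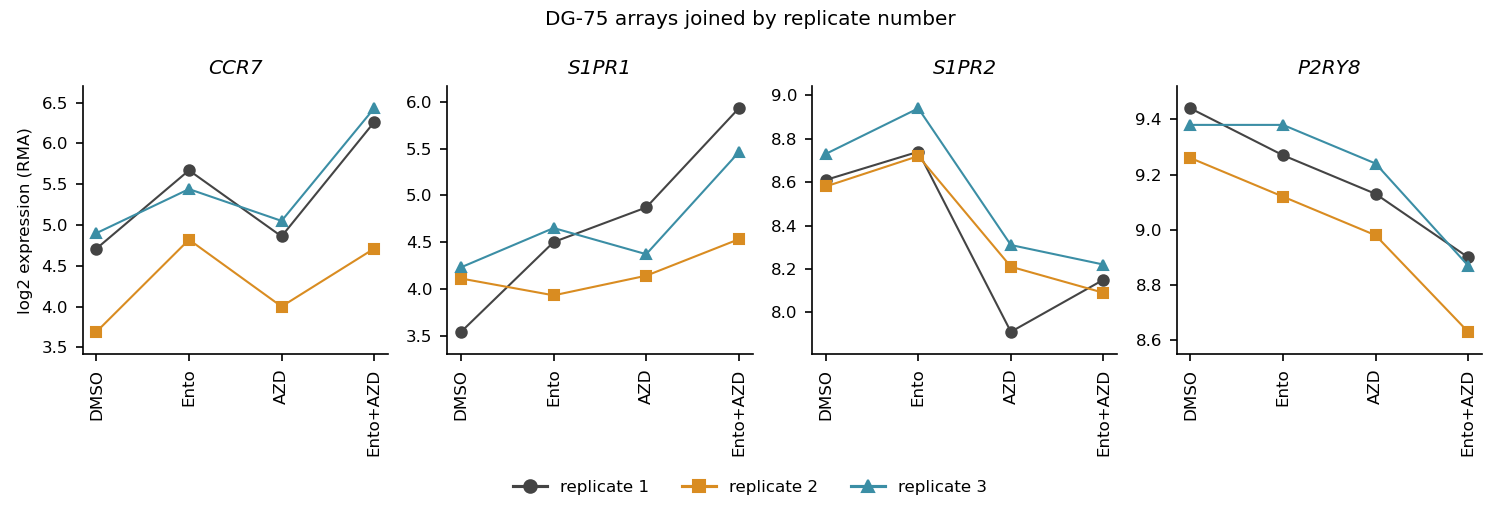
Log2 expression (RMA) of CCR7, S1PR1, S1PR2 and P2RY8 on the 12 DG-75 arrays, with lines that join arrays of the same replicate number across treatments; axes differ between panels and do not start at 0. Under Ento+AZD, CCR7 and S1PR1 lie above and S1PR2 and P2RY8 below the DMSO array of the same number in all 3 replicates.

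P2RY8 moved the other way in DG-75. It was 9.44, 9.26 and 9.38 under DMSO and 8.90, 8.63 and 8.87 under Ento+AZD, without overlap, and the same-numbered arrays fell by 0.54, 0.62 and 0.52. The fit gave a 1.47-fold decrease (log2 -0.56, SE 0.119, limma adjusted p = 0.0378), under the fold minimum. By adjusted p alone, 2.39% of all rows and 3 of 8 members passed. The adjusted p of P2RY8 was 0.0505 without the replicate term, 0.0811 after quantile normalization, 0.0882 after subtraction of array medians and 0.0854 to 0.457 when an array or a replicate number was left out.

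S1PR2 was 8.61, 8.58 and 8.73 under DMSO, 7.91, 8.21 and 8.31 under AZD and 8.15, 8.09 and 8.22 under Ento+AZD in DG-75. Both AZD-containing groups lay wholly under the DMSO arrays, while the Ento arrays stood at 8.74, 8.72 and 8.94. The log2 difference from DMSO was -0.50 under AZD (SE 0.128, limma adjusted p = 0.114) and -0.49 under Ento+AZD (SE 0.128, adjusted p = 0.0754), and neither passed. Ento+AZD against Ento passed by adjusted p (log2 -0.65, SE 0.128, limma adjusted p = 0.0335) and stayed under the fold minimum. In that comparison 0 of 8 members were called against 0.657% of all rows, and 1 of 8 passed by adjusted p alone against 1.66% of all rows. S1PR2 then had an adjusted p of 0.0601 after quantile normalization, 0.0661 after subtraction of array medians and 0.056 to 0.401 when an array or a replicate number was left out.

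The other members of DG-75 stayed near their DMSO level under Ento+AZD, with log2 differences of 0.22 for CXCR4 (interval -0.18 to 0.62), 0.23 for CXCR5 (-0.23 to 0.70), 0.14 for CCR6 (-0.32 to 0.60) and 0.02 for GPR183 (-0.39 to 0.44). Over the 8 members the median log2 difference was 0.179, with 6 higher and 2 lower, and over all rows it was -0.0693. The groups did not overlap for 3 of 8 members (S1PR1, S1PR2 and P2RY8), compared with 18.9% of symbols. The means of the 5 B-cell markers were all higher in DG-75 under Ento+AZD, by a median of 0.444 on the log2 scale. Their summed level was 44.47 to 45.94 under DMSO and 46.88 to 49.02 under Ento+AZD, and CD79B, a signalling chain of the B-cell receptor, was called (log2 1.03, SE 0.187, limma adjusted p = 0.0227). The means of both germinal centre markers were lower (median -0.33, with -0.30 and limma adjusted p = 0.335 for BCL6), as were those of the 4 T-cell markers (median -0.213), and none of these was called. The part of these shifts in the changes of CCR7, S1PR1, S1PR2 and P2RY8 was not tested.

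In SU-DHL-4 the largest differences from DMSO among the members belonged to GPR183, in the groups that held Ento. GPR183 was 3.48, 3.68 and 3.69 under DMSO, 5.52, 5.37 and 4.94 under Ento, 2.97, 4.55 and 3.68 under AZD and 6.08, 4.73 and 4.38 under Ento+AZD. Every array with Ento lay above all DMSO arrays, and Ento+AZD replicate 1 was the highest. The log2 difference from DMSO was 1.66 under Ento (SE 0.401, limma adjusted p = 0.286), 0.12 under AZD (SE 0.401, adjusted p = 0.946) and 1.45 under Ento+AZD (SE 0.401, adjusted p = 0.0909), and none was called. The value under Ento+AZD was called in 1 fit of all 24 arrays (adjusted p = 0.0268) and with a prior variance that follows the level (0.0309). Without Ento+AZD replicate 1 its log2 difference was 0.83, and without all arrays of replicate 1 it was 0.87.

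CXCR4 and CXCR5 had estimates of the same sign in SU-DHL-4, positive under Ento and negative under AZD, and no value passed. CXCR4 was 10.54, 9.74 and 10.34 under Ento and 9.52, 8.21 and 8.94 under AZD, which gave log2 differences from DMSO of 0.60 (SE 0.188, limma adjusted p = 0.439) and -0.72 (SE 0.188, adjusted p = 0.167). Under both compounds it was 9.88, 9.45 and 9.49, with a mean of 9.60 against 9.61 under DMSO. CXCR5 was 8.86, 8.75 and 8.62 under Ento, above every DMSO array, and 8.32, 8.16 and 7.56 under AZD. Its log2 differences were 0.38 (SE 0.154, limma adjusted p = 0.533), -0.35 (SE 0.154, adjusted p = 0.41) and, under Ento+AZD (8.58, 8.55 and 8.25), 0.10 (SE 0.154, adjusted p = 0.846).

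The CCR7 mean lay under that of DMSO in all 3 exposed groups of SU-DHL-4, and no difference passed. It was 4.56, 4.24 and 4.6 under DMSO, 4.12, 3.61 and 4.58 under Ento, 3.88, 3.70 and 3.77 under AZD and 3.85, 4.03 and 3.80 under Ento+AZD. The AZD and Ento+AZD arrays lay wholly below DMSO, with log2 differences of -0.68 (SE 0.197, limma adjusted p = 0.207) and -0.57 (SE 0.197, adjusted p = 0.188), and Ento gave -0.37 (SE 0.197, adjusted p = 0.639). S1PR1 was 4.74, 4.49 and 4.77 under DMSO, 5.05, 5.65 and 4.79 under Ento and 4.97, 5.03 and 4.12 under Ento+AZD. S1PR2 was 8.67, 8.95 and 8.75 under DMSO, 9.09, 9.09 and 9.10 under Ento and 8.61, 8.55 and 8.46 under Ento+AZD. The groups did not overlap for S1PR1 and S1PR2 under Ento (log2 0.50 and 0.31) and for S1PR2 under Ento+AZD (-0.25), and none of these passed. In all, 1 of 8 members under AZD and 3 of 8 under Ento+AZD did not overlap with DMSO in SU-DHL-4, compared with 15.7% and 20.8% of symbols. P2RY8 differed from DMSO by 0.10 at most in SU-DHL-4, with 12 arrays between 9.35 and 9.79. CCR6 arrays ranged from 3.72 to 5.92 with overlap between all 4 treatments.

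**Figure D3:**
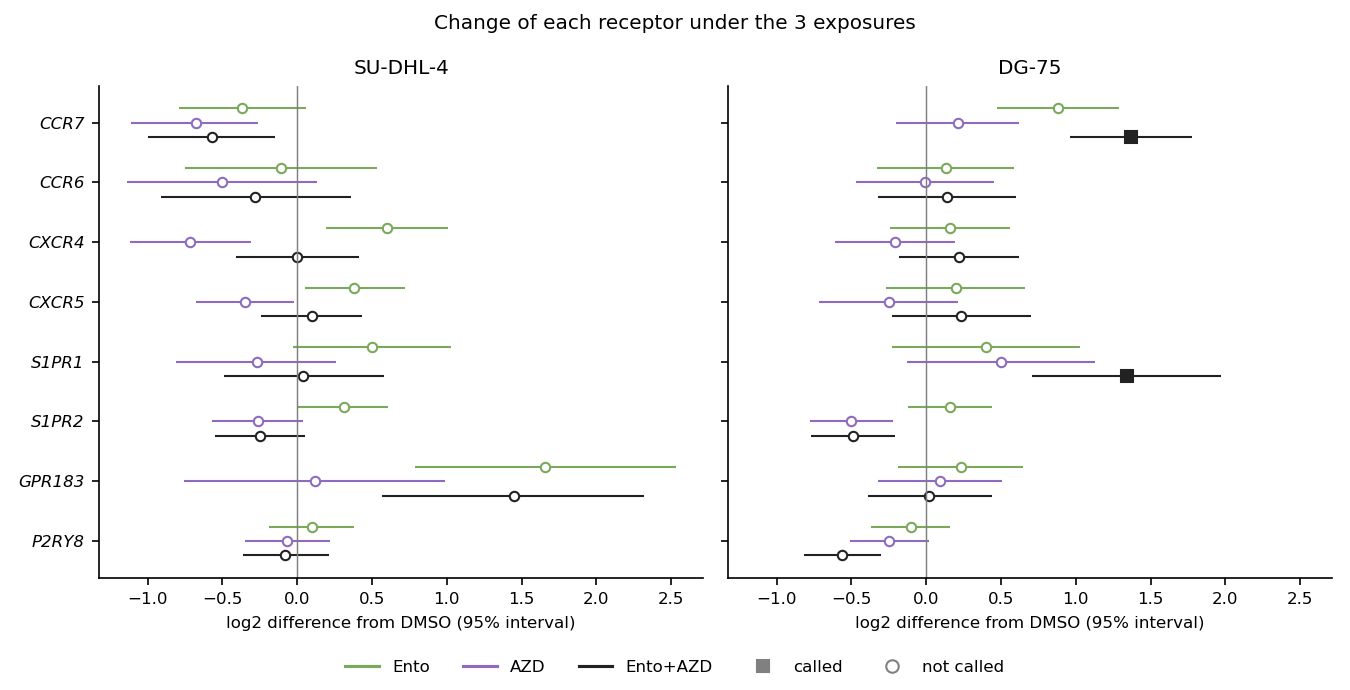
Log2 difference from DMSO with its 95% interval for each receptor under Ento, AZD and Ento+AZD in SU-DHL-4 (left) and DG-75 (right); filled squares were called and open circles were not. CCR7 and S1PR1 under Ento+AZD in DG-75 are the 2 called values, and GPR183 in SU-DHL-4 has estimates of 1.66 and 1.45 that were not called.

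The single agents were compared with DMSO to ask what each inhibitor does alone. Ento called 0 of 8 members in either line, while 0.0508% of all rows were called in SU-DHL-4, against 0.00391% in DG-75. An unadjusted limma p under 0.05 was found for 4 of 8 members in the first line (8.59% of all rows) and 1 of 8 in the second (2.81%). CCR7 in DG-75 had the smallest p of them: its Ento arrays (5.67, 4.82 and 5.44) lay above the DMSO array of the same number by 0.97, 1.13 and 0.54 (log2 0.88, SE 0.186, limma adjusted p = 1). Ento groups did not overlap with DMSO for 4 of 8 members in SU-DHL-4 (CXCR5, GPR183, S1PR1 and S1PR2), compared with 13.4% of symbols, and for 0 of 8 in DG-75, compared with 6.68%. AZD also called 0 of 8 members in either line, while 0.18% of all rows were called in SU-DHL-4 and likewise 0.18% in DG-75. At an unadjusted limma p under 0.05 there were 3 of 8 members (11.5% of all rows) and 1 of 8 (13.8%), the latter near the background. Under AZD, 7 of 8 members were lower in SU-DHL-4 (median log2 difference -0.311, all rows -0.0777) and 5 of 8 in DG-75 (median -0.112, all rows -0.0609).

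Ento+AZD was next compared with Ento alone and AZD alone. In SU-DHL-4, 0 of 8 members were called against Ento (0.0821% of all rows) and 0 of 8 against AZD (0.0274%), with 2 of 8 (9.67% of all rows) and 3 of 8 (7.03%) at an unadjusted limma p under 0.05. GPR183 was higher under Ento+AZD than under AZD by 3.11, 0.17 and 0.70 in replicates 1 to 3 (log2 1.33, SE 0.401, limma adjusted p = 0.538), and CXCR4 by 0.36, 1.24 and 0.54 (log2 0.71, SE 0.188, adjusted p = 0.453). Over the processing alternatives the GPR183 difference ran from 0.44 to 1.91. In DG-75, 0 of 8 members were called against AZD, as were 0% of all rows, and 5 of 8 members had an unadjusted limma p under 0.05, compared with 4.03% of all rows. Against Ento in this line, 4 of 8 members had an unadjusted limma p under 0.05, compared with 14.8% of all rows. CCR7 in DG-75 was 4.86, 4.0 and 5.05 under AZD, and Ento+AZD lay above it by 1.39, 0.72 and 1.38 (log2 1.16, SE 0.186, interval 0.75 to 1.57, limma adjusted p = 0.941). Against Ento the same-numbered differences of CCR7 were 0.59, -0.10 and 1.00 (log2 0.49, SE 0.186, limma adjusted p = 0.236). S1PR1 was 4.87, 4.14 and 4.37 under AZD and 4.5, 3.93 and 4.65 under Ento in DG-75. Ento+AZD exceeded AZD by 0.84 (SE 0.287, limma adjusted p = 1) and Ento by 0.94 (SE 0.287, adjusted p = 0.138).

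A test of whether the change under Ento+AZD departed from the sum of the single changes called 0 of 8 members in either line, and 0% of all rows in SU-DHL-4 as well as 0% in DG-75. No member had an unadjusted limma p under 0.05 in this test, compared with 4.99% and 2.63% of all rows. In DG-75 the departure was 0.29 for CCR7 (interval -0.29 to 0.86), 0.44 for S1PR1 (-0.45 to 1.33) and -0.21 for P2RY8 (-0.58 to 0.16). In SU-DHL-4 it was -0.33 for GPR183 (-1.56 to 0.90) and 0.11 for CXCR4 (-0.47 to 0.69). In SU-DHL-4 it was also 0.48 for CCR7 (-0.13 to 1.08), the smallest p of the members in that line, and the interval of CCR6 was -0.56 to 1.24. The intervals of S1PR1 in DG-75 and of GPR183, CCR7 and CCR6 in SU-DHL-4 thus reach past 1 on the log2 scale.

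Over both lines 0 of 8 members were called under Ento (0.00391% of all rows), AZD (0.25%) or Ento+AZD (0.848%), with 3, 3 and 4 members at an unadjusted limma p under 0.05, compared with 5.93%, 17.4% and 20.4% of all rows. S1PR2 alone passed by adjusted p, with a decrease under AZD (log2 -0.38, SE 0.0889, limma adjusted p = 0.0207) and under Ento+AZD (log2 -0.37, SE 0.0889, adjusted p = 0.0115). It was lower than the DMSO array of the same number in 6 of 6 pairs in each comparison. By adjusted p alone 3.48% of all rows passed under AZD and 7.76% under Ento+AZD, so that 1 of 8 members lay near the background in the second comparison. The adjusted p rose to 0.127 and 0.0532 after quantile normalization and to 0.0998 and 0.0841 after subtraction of array medians. Under AZD it passed 0.05 without DMSO replicate 2 of SU-DHL-4 (0.0519), DMSO or AZD replicate 1 of DG-75 (0.06 and 0.0801) or replicate number 1 (0.35) or 3 (0.211), and under Ento+AZD without replicate number 1 (0.0548), 2 (0.136) or 3 (0.164).

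The lines were compared in their response by a test of the difference itself. CCR7 differed, since it was lower under Ento+AZD in SU-DHL-4 (by 0.71, 0.21 and 0.80 in replicates 1 to 3) and higher in DG-75. The change in SU-DHL-4 less that in DG-75 was -1.94 (SE 0.279, interval -2.53 to -1.36, limma adjusted p = 0.0126). It is a difference between array values, since the DMSO means of both lines (4.47 and 4.43) and the Ento+AZD mean of SU-DHL-4 (3.89) cannot be separated from background. This was 1 of 8 members, against 0.0352% of all rows. The call was lost without the replicate term (adjusted p = 0.444). It was also lost without SU-DHL-4 Ento+AZD replicate 3 (0.0509), replicate 1 (0.0688) or 3 (0.0633) of the DG-75 DMSO group, replicate 1 (0.0592) of its Ento+AZD group, or replicate number 1 (0.662) or 3 (0.245). The difference for GPR183 was 1.42 (SE 0.5, limma adjusted p = 0.556), and 0.81 without SU-DHL-4 Ento+AZD replicate 1. For S1PR1 it was -1.30 (SE 0.408, limma adjusted p = 0.452), with -2.01 to -0.87 over the processing alternatives. For P2RY8 it was 0.48 (SE 0.151, limma adjusted p = 0.446), and none of these differences passed. Under Ento alone 0 of 8 members differed between lines (0.00782% of all rows) and under AZD 0 of 8 (0% of all rows), with 2 and 1 members at an unadjusted limma p under 0.05, compared with 4.43% and 6.16% of all rows. CCR7 had the smallest p of the members in both, at -1.24 under Ento (SE 0.279, limma adjusted p = 0.536) and -0.89 under AZD (SE 0.279, adjusted p = 0.57).

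**Figure D4:**
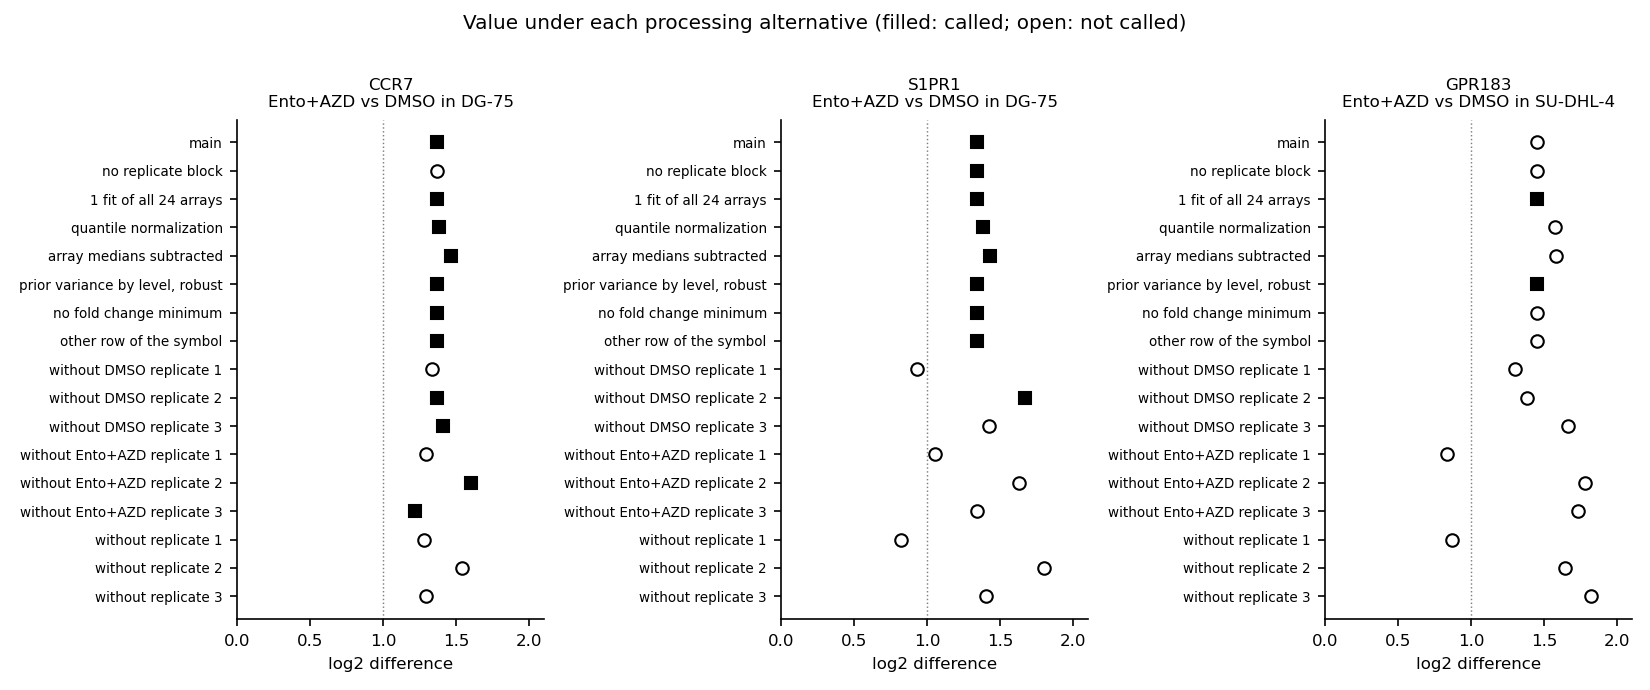
Log2 difference from DMSO of CCR7 and S1PR1 in DG-75 and of GPR183 in SU-DHL-4 under Ento+AZD, in the reported fit (main) and in each processing alternative that tested the gene; filled squares were called, open circles were not, and the dotted line marks a 2-fold change. CCR7 stays between 1.22 and 1.6, S1PR1 drops to 0.82 without replicate 1, and GPR183 is called in 2 alternatives.

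The 8 group means of each receptor were put in order, and neighbours were checked for overlap of their arrays. For CXCR4 the 4 DG-75 groups ranked above the 4 SU-DHL-4 groups (11.20 under Ento+AZD to 10.77 under AZD, then 10.21 to 8.89), and for CXCR5 the SU-DHL-4 groups ranked above those of DG-75 (8.74 to 8.01, then 5.97 to 5.49). The step between the lines had no overlap of arrays in either gene. The CCR6 and GPR183 means also ranked by line, with overlap at the step for CCR6. For GPR183 the groups at the step (means of 3.62 and 3.15) did not overlap, but the lines did, at 2.97 to 6.08 in SU-DHL-4 and 2.51 to 3.35 in DG-75, and both means lay under the table's median row. The P2RY8 means ranked by line too, with overlap at the step. They ran from 9.64 in SU-DHL-4 under Ento to 8.80 in DG-75 under Ento+AZD, and only the step down to this last group, from 9.12, had no overlap. For CCR7 and S1PR1, whose means ran from 5.80 to 3.78 and from 5.30 to 3.96, all neighbours overlapped. The S1PR2 order had the Ento group of SU-DHL-4 at the top (9.10) and the AZD-containing groups of DG-75 at the bottom (8.15 and 8.14), each set off from its neighbour without overlap.

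The lists of genes around these receptors, 6 in all, were counted in the same fits: 17 ligands and enzymes of ligand metabolism, 29 other chemokine, S1P and P2Y receptors, 17 genes of G protein coupling and desensitisation, 15 cytoskeletal effectors, 14 adhesion and homing genes and 12 transcription factors tied to positioning. Under Ento+AZD in DG-75, 2 of the 104 listed genes were called (1.92%, against 0.833% of all rows), a count near the background. CD69, an activation antigen whose protein binds S1PR1 and takes it off the cell surface, ranged from 3.97 to 4.64 under DMSO and from 5.41 to 6.91 under Ento+AZD. It rose in the same comparison as S1PR1 (log2 1.66, SE 0.261, limma adjusted p = 0.0188), also against Ento (log2 1.59, SE 0.261, adjusted p = 0.0211) and over both lines (log2 1.27, adjusted p = 0.0133). P2RY10, a receptor for lysophosphatidylserine, ranged from 5.48 to 5.90 under DMSO and from 4.37 to 4.86 under Ento+AZD, and fell (log2 -1.04, SE 0.186, limma adjusted p = 0.0221), with the call lost after quantile normalization (-0.94) and subtraction of array medians (-0.95), where it lay under the fold minimum.

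In SU-DHL-4, 2 of 104 listed genes were called under Ento+AZD (1.92%, against 1.19% of all rows), 1 under Ento (0.962%, against 0.0508%) and 1 in Ento+AZD against AZD (0.962%, against 0.0274%). CD69 had a log2 difference from DMSO of 1.37 under Ento (SE 0.245, limma adjusted p = 0.0834) and 0.87 under Ento+AZD (SE 0.245, adjusted p = 0.0946), with no overlap and a higher value in 3 of 3 same-numbered pairs in each, and was not called. No listed gene was called in the test of the difference between the lines. BACH2, a transcriptional repressor of germinal centre and memory B cells, ranged from 7.48 to 8.23 under DMSO, from 8.89 to 9.32 under Ento and from 8.51 to 9.26 under Ento+AZD. It rose under Ento (log2 1.32, SE 0.152, limma adjusted p = 0.00936), under Ento+AZD (log2 1.17, SE 0.152, adjusted p = 0.00567) and in Ento+AZD against AZD (log2 1.41, SE 0.152, adjusted p = 0.00632). GPR174, another such receptor, ranged from 4.63 to 5.17 under DMSO and from 3.5 to 3.91 under Ento+AZD and fell (log2 -1.26, SE 0.206, limma adjusted p = 0.0101). The BACH2 calls were lost without the replicate term (adjusted p = 0.219, 0.0933 and 0.255 in the order given).

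Omission of an array or a replicate number, 9 in each comparison within a line and 15 over both lines, ended many of these calls. The call of BACH2 under Ento+AZD was lost without replicate number 3 alone (adjusted p = 0.102). Its call under Ento was kept in 2 omissions, of DMSO replicate 2 (0.0401) and Ento replicate 2 (0.0298), with 0.326 as the highest adjusted p, and that against AZD was kept without AZD replicate 2 alone (0.0115), with 0.374 as the highest. The call of GPR174 was lost without DMSO replicate 3 (0.0504), Ento+AZD replicate 2 (0.0647) or replicate number 1 (0.0669) or 3 (0.116). P2RY10 and CD79B each kept theirs in 1 omission, P2RY10 without DMSO replicate 2 (0.0464) and CD79B without Ento+AZD replicate 3 (0.0211). CD69 in DG-75 lost its call against DMSO without DMSO replicate 1 (0.15) or 3 (0.0602), Ento+AZD replicate 1 (0.123) or replicate number 1 (0.319) or 3 (0.115). Against Ento it was kept without Ento replicate 3 (0.0311), Ento+AZD replicate 2 (0.00635) or replicate number 2 (0.0406), and over both lines it was lost without replicate number 1 (0.212) or 3 (0.0704).

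No ligand, no gene of G protein coupling and desensitisation and no cytoskeletal gene was called under any exposure in either line. The smallest p of the ligands under Ento+AZD belonged to SGPL1, the S1P lyase, in SU-DHL-4 (log2 -0.44, limma adjusted p = 0.321) and to CYP7B1, a hydroxylase that makes oxysterol ligands of GPR183, in DG-75 (log2 -0.48, adjusted p = 0.242). Of the cytoskeletal genes it belonged to MYO1G in SU-DHL-4 (log2 -0.55, limma adjusted p = 0.0605) and to RHOH, a haematopoietic small GTPase, in DG-75 (log2 0.89, adjusted p = 0.0214), below the fold minimum. Of the G protein list it belonged to GRK2 in SU-DHL-4 (log2 -0.52, limma adjusted p = 0.105) and to RGS13 in DG-75 (log2 -0.42, adjusted p = 0.103). Of the adhesion genes in SU-DHL-4 the smallest p under Ento+AZD belonged to ITGAL (log2 -0.75, limma adjusted p = 0.014). Of the transcription factors in DG-75 it belonged to IRF4 (log2 -0.81, limma adjusted p = 0.0403), and both lay below the fold minimum. Median log2 differences of the lists under Ento+AZD lay between -0.184 and 0.0468 in SU-DHL-4 and between -0.156 and 0.0591 in DG-75, near the -0.0827 and -0.0693 of all rows.

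**Figure D5:**
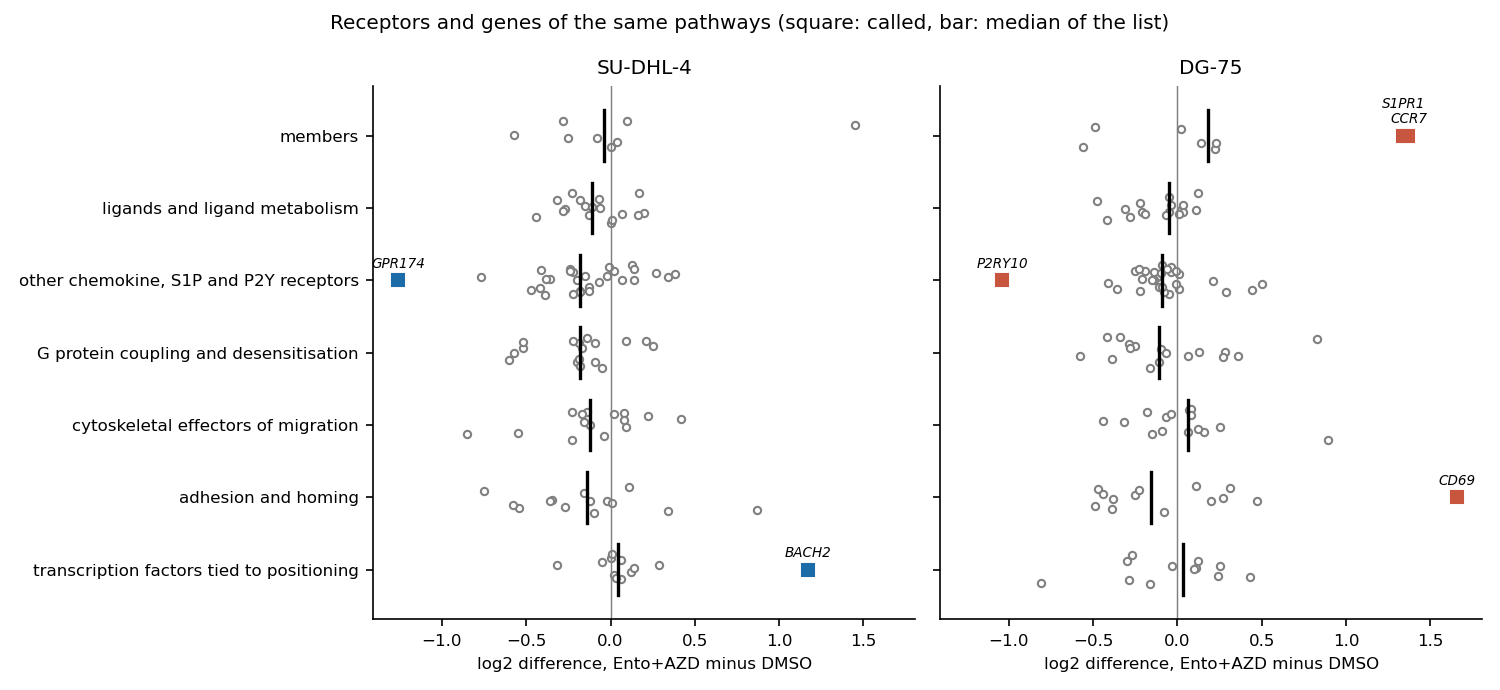
Log2 difference between Ento+AZD and DMSO for the 8 receptors (members) and the genes of 6 lists around them in SU-DHL-4 (left) and DG-75 (right), 1 point per gene with a bar at the median of each list; filled squares were called and carry their names. Called genes were GPR174 and BACH2 in SU-DHL-4 and CCR7, S1PR1, P2RY10 and CD69 in DG-75.

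Between the untreated lines, more of the surrounding genes differed. Of the G protein list 6 of 17 were called, all higher in SU-DHL-4: GNAI2, GNA12, RGS13, RGS18, GRK3 and GRK5. RGS18 stood at 7.69 against 2.37, a DG-75 level that cannot be separated from background, so that no exact fold is given (limma adjusted p = 4.99e-14). Of the other receptors ACKR4, GPR18 and GPR174 were higher and P2RY10 lower in SU-DHL-4, with GPR18 at 11.13 against 5.94 (log2 5.20, SE 0.281, limma adjusted p = 2.14e-12). Of 14 adhesion genes ITGB1, ITGB7, ITGAL, ICAM2 and ICAM3 were higher and SELPLG lower, and of 12 transcription factors EBF1, FOXO1 and POU2F2 were higher and IRF4 and NFKB2 lower. The background of 7.2% of all rows holds for these counts too. When an array or a replicate number was left out, ICAM3 kept its call in 3 of 9 omissions, GNA12, GRK5 and NFKB2 in 6, POU2F2 in 7, ACKR4, GPR174, P2RY10 and SELPLG in 8 and the rest in 9.

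Similarity of pattern was described by Pearson's r over the 24 arrays, after the mean of each line and replicate number was taken from every array, among symbols at or over the median row. The points share arrays, and r is given as a description. Closest to S1PR2 were ZBTB2 (r = 0.953), MCM5 (0.944) and KCNMB4 (0.941), and closest to P2RY8 were LCK (0.888), TESC (0.872) and TOX (0.872). CXCR4 was most like SUSD3 (0.915), CNR1 and TRANK1, GPR183 like APC (0.912), BCL2L11 and UGGT1, and S1PR1 like FCMR (0.884), SNORD8 and MIR4436A. CCR7 was most like SORBS2 (0.823), HLA-E and IRF9, CXCR5 like ISG20 (0.815), GNG7 and EVL, and CCR6 like TRAF3 (0.763), TEKT4P2 and REXO1. Among the members, the confinement receptors S1PR2 and P2RY8 ran together in both lines (r = 0.765 over the 12 SU-DHL-4 arrays and 0.766 over the 12 DG-75 arrays), as did CXCR4 and CXCR5 (0.89 and 0.593). The SU-DHL-4 value does not set the confinement pair apart, since CXCR4 reached 0.779 with P2RY8 and 0.742 with S1PR2 there. In DG-75 these values were -0.182 and 0.19. S1PR1 and P2RY8 ran against each other in DG-75 (-0.811) and not in SU-DHL-4 (0.545), and CCR7 and S1PR1 ran together in DG-75 (0.735) with 0.109 in SU-DHL-4.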

How the data were processed

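Total RNA of 24 samples was hybridised to Clariom D human arrays. The deposited values are log2 expression: per the study's methods, the authors applied RMA normalization with limma and assigned probes to genes (affycoretools, transcript cluster annotation of the array). RMA corrects background, equalizes arrays and summarises probes, which can shrink small differences. The build behind the annotation is not given in the sources used here. The table had 25575 rows and 25161 symbols, every sample column was assigned by its name, and 0 columns were left unused. Arrays have no read depth, and the number of arrays limits the precision.

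Groups and replicate numbers came from the sample labels. Differences were computed with limma 3.58.1 under R 4.3.3 by lmFit, contrasts.fit and eBayes over all rows and adjusted by Benjamini-Hochberg. The lines were fitted separately, with 4 treatments and the replicate number as a batch term, since the study's model has a batch term. The methods do not say what the batch was, and taking the replicate number for it is an assumption. The comparison over both lines added a line term and used the replicate number as a term shared by the lines. Arrays of different lines share no replicate, so that this shared term is a further assumption. The difference between lines used replicate number within line, and the DMSO level used 8 groups without a replicate term. A call needed an adjusted p under 0.05 and a fold change over 2. A symbol with several rows was represented by the row with the highest mean. All members are named, and genes of the surrounding lists are named where called. For Ento+AZD against DMSO within a line, the gene with the smallest p is named for lists without a call. A B-cell marker of the planned list is not reported here. Members, lists, motifs and alternatives were chosen with earlier results of these data known. The calculations were tested on simulated data. Alternatives were no replicate term, 1 fit of all arrays, other scalings, omission of rows under the median, another prior variance, no fold minimum, the other row of a symbol, and leaving out single arrays or whole replicate numbers. Promoter sequences and coordinates came from RefSeq tables of GRCh38.p14, which matched 7 of 8 members for promoters.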

Additional observations from a re-analysis of the deposited data

Results flagged for a closer look

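The response of CCR7 to Ento+AZD differed between the lines by a test of the difference itself. The change in SU-DHL-4 less that in DG-75 was -1.94 on the log2 scale (SE 0.279, limma adjusted p = 0.0126), with CCR7 lower in 3 of 3 same-numbered pairs in the first line and higher in 3 of 3 in the second. The means of both lines under DMSO (4.47 and 4.43) and that of SU-DHL-4 under Ento+AZD (3.89) cannot be separated from background, so that the value is a difference between array values and no exact fold. Without the replicate term the adjusted p was 0.444.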

How the results depend on the processing

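Over 3419 values of single genes under an alternative, 0 changed direction where a value was called, 3309 stayed on their side of the thresholds, 104 lost a call and 6 gained one. Most of these values belong to genes not called in the reported fit, which had no call to lose. The call of CCR7 under Ento+AZD in DG-75 was kept in 10 of 16 alternatives and that of S1PR1 in 8 of 16. The call of the CCR7 difference between lines under Ento+AZD was kept in 14 of 21. The count of called members was scored as unmoved in 342 of 365 cases. This score also took in small changes, such as 2 members in place of 3 or the reverse. Without the replicate block, Ento+AZD in DG-75 called 1 member (S1PR1) in place of 2, and the difference between lines under Ento+AZD called 0 in place of 1. Same-numbered arrays did not deviate together throughout. In SU-DHL-4 the median r was 0.15 over 18 such pairs (12 over 0.1) and -0.0694 over 36 pairs of different number (1 over 0.1), and in DG-75 it was 0.0405 (7 of 18 over 0.1) and -0.0138 (11 of 36). The replicate number is thus an assumed batch, not a shown pairing, least of all in DG-75. Omission of rows under the median left 4 members to test and gave 0 called in both comparisons, because CCR7 and S1PR1 were not among them. Ento+AZD in SU-DHL-4 called 1 member, GPR183, in 1 fit of all arrays and 1 with the level-dependent prior variance. Without a fold minimum 1 member, S1PR2, was called in Ento+AZD against Ento in DG-75, 1 in AZD over both lines and 1 in Ento+AZD over both lines. When an array or a replicate number was left out, Ento+AZD in DG-75 called 0 to 2 members and the difference between lines 0 to 1. CXCR5 and CXCR4 between the lines were called in 17 of 17 alternatives, CCR6 in 10 of 16.

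Counts over the whole table moved more. Without the replicate block they were 45 in place of 304 for Ento+AZD in SU-DHL-4, 9 in place of 46 for AZD, and 1 in place of 13 for Ento, and 208 in place of 213 for Ento+AZD in DG-75. Omitting an array or a replicate number gave 0 to 330 and 0 to 272 for Ento+AZD in SU-DHL-4 and DG-75, and without a fold minimum the counts were 604 and 611. Subtraction of array medians moved the median difference of all rows by 0.12 (Ento), 0.12 (AZD) and 0.13 (Ento+AZD) in SU-DHL-4 and by 0.11 for Ento+AZD over both lines. The causes of these shifts were not tested.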
